A study of Mus musculus with 9 samples.

Results

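The genes described here are 43 members of the Wnt signalling pathway: 19 Wnt ligands, 10 Frizzled receptors, 9 secreted antagonists and 5 co-receptors or targets. They were taken from a named list, out of 21887 protein-coding mouse genes, and followed through peaks of open chromatin in 9 ATAC-seq libraries. A member's window was its gene span with 50000 bp on either side, and the gene had an open end in a library when a peak of that list came within 1000 bp of the span's first or last base. The windows held 551 of the 124230 regions obtained by merging overlapping peaks of all lists. All coordinates are in build GRCm38.

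ATAC-seq uses the Tn5 transposase to cut and tag accessible DNA, so a peak marks a stretch of open chromatin. The libraries came from 3 cell lines, each grown out of a primary osteosarcoma of a mouse, with 3 libraries per line. The lines carried the genotypes p53R172H/-, p53R245W/- and p53-/-, called R172H, R245W and null below. None of the 3 genotypes therefore holds a wild-type p53 allele, no line with wild-type p53 was included, and the null line served as the reference. Each genotype is a single line, so a difference between genotypes and a difference between lines cannot be told apart. Whether libraries of the same line came from separate cultures is not stated in the labels, and p-values then measure only the spread between these libraries, which may be technical.

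Wnt proteins are secreted lipid-modified ligands that bind a Frizzled receptor together with the co-receptor Lrp5 or Lrp6. In the canonical branch this stops the destruction complex, of which Axin2 is a part, from degrading beta-catenin, which then works with the DNA-binding factors Lef1 and Tcf7. Sfrp proteins, Frzb and Wif1 bind Wnt ligands outside the cell, whereas Dkk1 and Dkk2 act on the co-receptors. In bone, canonical Wnt signalling promotes the formation of osteoblasts and their matrix.

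Promoters of 5 members that differed between the lines are printed below together with that of Axin2, which was open in every library. Each sequence is the 250 bases before an annotated start, from RefSeq (GRCm38.p6), written 5′ to 3′ on the strand of the gene. The table of promoters held 37 entries for 30 of the 43 members. It held none for Wnt5a, Wnt7b, Wnt8a, Wnt10a, Fzd2, Fzd3, Fzd6, Fzd8, Dkk3, Sfrp1, Sfrp4, Lrp5 or Lrp6. Capitals mark matches, on either strand, to 1 of 5 short motifs: CTTTGAT for TCF/LEF factors, TGANTCA for AP-1, TGTGGT for RUNX, GGGCGG for SP/KLF and CACGTG for E-box factors.
Wnt2 (chr6:18030446-18030695, minus strand), open in R172H and R245W: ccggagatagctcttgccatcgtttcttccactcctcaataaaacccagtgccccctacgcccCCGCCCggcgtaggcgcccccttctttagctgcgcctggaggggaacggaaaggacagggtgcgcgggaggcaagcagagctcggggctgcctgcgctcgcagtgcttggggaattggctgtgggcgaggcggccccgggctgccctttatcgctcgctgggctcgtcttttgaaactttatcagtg
Dkk1 (chr19:30549497-30549746, minus strand), open in R172H and R245W: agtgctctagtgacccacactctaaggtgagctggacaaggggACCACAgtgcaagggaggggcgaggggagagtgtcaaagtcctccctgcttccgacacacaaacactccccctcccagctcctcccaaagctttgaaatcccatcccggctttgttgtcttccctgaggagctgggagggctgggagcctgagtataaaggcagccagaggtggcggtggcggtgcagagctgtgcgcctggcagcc
Fzd10 (chr5:128600856-128601105, plus strand), open in R172H: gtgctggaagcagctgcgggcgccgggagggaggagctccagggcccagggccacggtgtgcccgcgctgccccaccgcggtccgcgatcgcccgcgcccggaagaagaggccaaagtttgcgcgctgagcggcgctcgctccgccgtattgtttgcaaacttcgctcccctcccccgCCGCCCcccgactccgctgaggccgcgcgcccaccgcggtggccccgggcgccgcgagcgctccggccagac
Wnt16 (chr6:22287977-22288226, plus strand), open in R245W: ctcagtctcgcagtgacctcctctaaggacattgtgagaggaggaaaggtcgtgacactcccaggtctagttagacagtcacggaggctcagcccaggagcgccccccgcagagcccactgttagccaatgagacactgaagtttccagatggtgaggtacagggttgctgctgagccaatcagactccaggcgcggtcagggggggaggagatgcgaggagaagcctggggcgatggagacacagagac
Wnt10b (chr15:98778151-98778400, minus strand), overlapped by a peak in null: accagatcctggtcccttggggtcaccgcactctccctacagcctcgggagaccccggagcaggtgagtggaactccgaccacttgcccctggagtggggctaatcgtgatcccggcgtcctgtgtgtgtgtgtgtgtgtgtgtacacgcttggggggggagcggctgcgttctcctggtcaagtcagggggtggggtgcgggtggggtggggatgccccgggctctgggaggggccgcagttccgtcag
Axin2 (chr11:108920099-108920348, plus strand), open in all 9 libraries: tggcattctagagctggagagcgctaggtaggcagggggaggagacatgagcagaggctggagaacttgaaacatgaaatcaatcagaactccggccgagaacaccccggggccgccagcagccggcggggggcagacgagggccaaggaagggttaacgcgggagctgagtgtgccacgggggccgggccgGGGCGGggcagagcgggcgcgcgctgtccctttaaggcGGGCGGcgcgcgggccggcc

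In these 6 sequences no match overlapped another. Dkk1 held 1 RUNX match, beginning 207 bases before the start, and Runx factors are the DNA-binding regulators of the osteoblast lineage. Wnt2, Fzd10 and Axin2 held SP/KLF matches, the GC-rich sequence bound by Sp and Klf factors, at 187, 72, and 58 and 20 bases before the start. Wnt16 and Wnt10b held none of the 5 motifs. Among all 21263 promoter entries of the same length, 42.6% held the SP/KLF motif, 12.4% the RUNX motif, 6.63% the E-box, 6.13% the AP-1 motif and 2.82% the TCF/LEF motif. Of the 37 member entries, 28 held the SP/KLF motif, 2 RUNX (Dkk1 and Sfrp5), 4 the E-box (Fzd9, Lef1, Wif1 and Wnt9a), 1 AP-1 (Wnt5b) and 2 TCF/LEF (Wnt11 and Wnt5b). The sequences also differed in base composition: G and C made up 76.4% of the Fzd10 promoter, 69.2% of Axin2, 66.8% of Wnt10b, 63.6% of Wnt2, 60.8% of Dkk1 and 59.2% of Wnt16, beside a median of 55.6% over all entries. The CpG dinucleotide occurred 37 times in the Fzd10 sequence and 6 times in that of Dkk1.

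Peaks over the promoter entries, taken as 250 bp before to 50 bp after the start, differed between lines for 7 members (3 of 3 libraries of one line against 0 of 3 of another). The strength of a peak is given as its percentile by −log10 q within its own library's list, where 100 is the strongest. The lists differ in length, so a percentile places a peak within its own list and is not read as a difference in strength between lines. The Wnt2 promoter had peaks at percentiles 71.3, 69.3 and 71.6 in the R172H libraries and 47.9, 57.5 and 48 in R245W, with none in null. The Dkk1 promoter had weaker peaks, at 18.3, 17.5 and 18.6 in R172H and 49.2, 39.8 and 36.4 in R245W, and again none in null. Both genes thus had a promoter peak in each of the 6 mutant libraries and in none of null. The Fzd10 promoter was open in R172H alone, at 32.5, 26.5 and 20.6. Wnt16 was open in R245W alone, at 55.4, 55.3 and 52.9. The Wnt10b window was overlapped by peaks in null alone, at 48.8, 56.4 and 53.8. In each of these 3 genes the other 6 libraries had no peak over the window. At Wnt10b this is a matter of position for R245W, whose peaks (56, 57.1 and 56.9) ended 227 to 244 bp from the gene's outer end, in a region called in all R245W and null libraries (chr15:98777994-98779554).

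Wnt9b and Dkk2 made up the rest. The annotated Wnt9b start had weak peaks in R172H only (18.3, 7.46 and 22.5), and the Dkk2 start had peaks in R245W only (70.2, 74.8 and 76.2). The Dkk2 case is one of position too, since R172H had peaks (72.4, 73.3 and 72.7) within 1000 bp of that gene end but not over the promoter window. By this measure 4 members were open in R172H and not in null (Dkk1, Fzd10, Wnt2 and Wnt9b), where 2.90% of all promoter entries were. Open in R245W and not in null were 4 (Dkk1, Dkk2, Wnt2 and Wnt16), beside 3.21% of all. The reverse held for 1 member against each mutant, Wnt10b, beside 1.10% of all entries against R172H and 0.343% against R245W. Between the mutants, 2 members were open in R172H only (Fzd10 and Wnt9b; 1.28% of all) and 2 in R245W only (Dkk2 and Wnt16; 2.38% of all). In all 9 libraries 20 of the 37 entries, of 17 members, had a peak, beside 51.5% of all entries, and 2 entries had none in any library, a later start of Lef1 and the single entry of Wnt8b.

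The lists held 65199 to 79424 peaks per library, with null the shortest (65199 to 65942), R172H between (72840 to 74352) and R245W the longest (75314 to 79424), so that counts in mutant libraries start from longer lists. Read depth is unknown from peak lists, and in bulk libraries fewer cells with an open site and a weaker opening in every cell cannot be told apart. Of 12 osteoblast-lineage markers, 8 were open at an end throughout (Runx2, Sp7, Dlx5, Alpl, Col1a1, Col1a2, Sparc and Spp1), Msx2 in some, and the late matrix genes Bglap, Ibsp and Dmp1 in none. Of 16 markers of other cell types, Ptprc (blood), Pecam1 and Cdh5 (endothelium), Cdh1 (epithelium), Myog (muscle) and Adipoq (fat) had no open end in any library, whereas Cd68, Kdr, Krt8, Sox9 and Pparg had one in every library. Csf1r was open in R245W only and Acan (cartilage) in R172H only, Epcam in 3 R245W and 2 null libraries, and Myod1 and Col2a1 in 8 of 9 libraries each. Some marker windows also differed between the lines. In the exact permutation test described below, 4 of the 28 markers passed (adjusted p 0.0371), beside 9.63% of all genes. They were Runx2 with mean peak counts of 25 in R172H, 28.3 in R245W and 37.7 in null, Ibsp with 2, 7.33 and 5, Kdr with 10.7, 5.67 and 4 and Acan with 5.67, 4 and 3.

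Gene ends of the Wnt members were mostly open in all lines. Of the 43 members, 28 had an open end in all 9 libraries, beside 55.0% of all protein-coding genes. They comprised 10 of 19 ligands (Wnt1, Wnt2b, Wnt4, Wnt5a, Wnt5b, Wnt7a, Wnt8a, Wnt9a, Wnt10a and Wnt11), 9 of 10 Frizzled genes, 5 of 9 antagonists (Sfrp2, Sfrp4, Sfrp5, Frzb and Wif1) and 4 of 5 co-receptors or targets (Lrp5, Lrp6, Lef1 and Tcf7). Sfrp5 met the rule through weak peaks at its ends (percentiles 1.81 to 27.6), and in R245W replicate 1 only its far end was called (8.06). The Sfrp5 promoter window had a peak in 3 R172H, 1 R245W and 1 null library. Axin2 alone had no peak within 1000 bp of either end of its span, although its promoter, which lies inside the span, had peaks at percentiles 85.6 to 97.3 in every library. The remaining 14 members had an open end in some libraries.

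**Figure D1:**
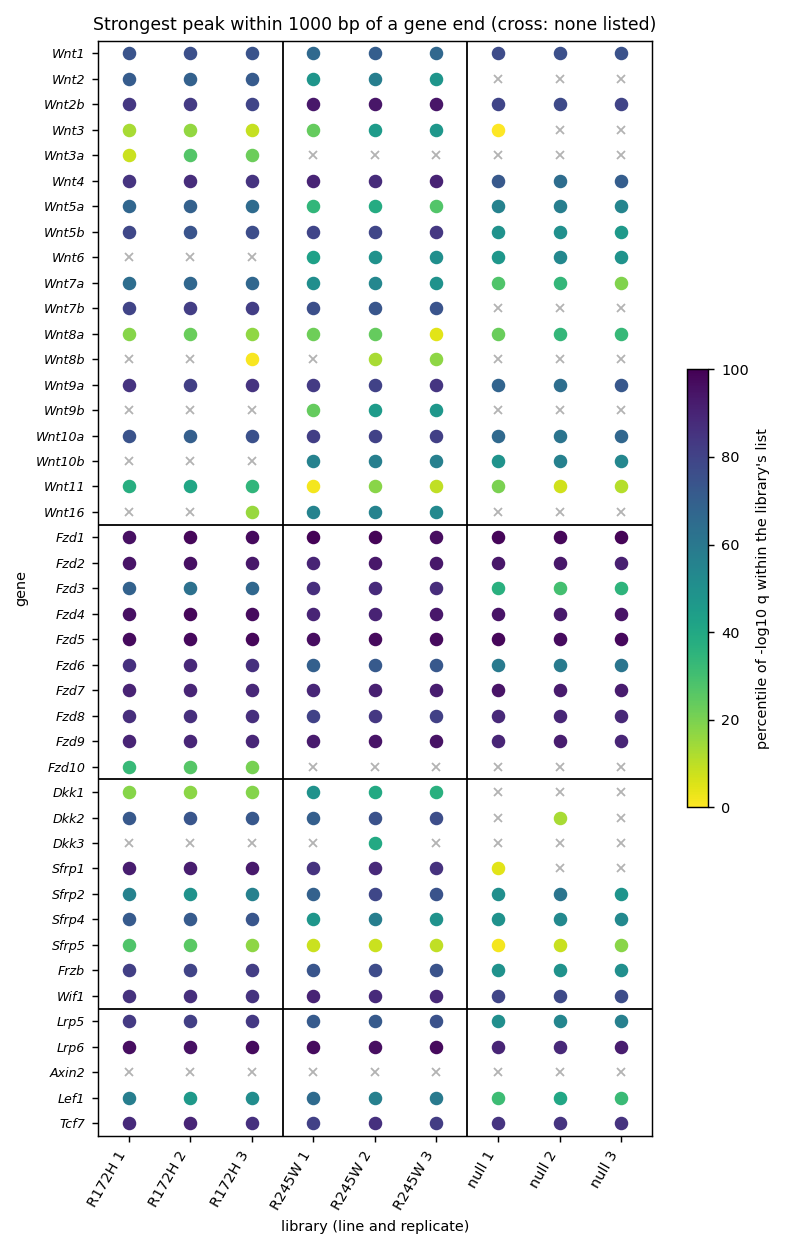
Strongest peak within 1000 bp of either gene end for the 43 members (rows, grouped by class) in each of the 9 libraries (columns), coloured by its percentile of −log10 q within the library's list. Crosses mark libraries with no such peak: 9 of the 10 Frizzled genes have a peak in every column, whereas Fzd10 has one only in R172H.

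A gene end called in 3 of 3 libraries of one line and 0 of 3 of another was counted as a difference between them. In R172H and not in null, 5 members had such an end (Wnt2, Wnt3a, Wnt7b, Fzd10 and Dkk1), where 3.19% of all genes did. In R245W and not in null there were also 5 (Wnt2, Wnt7b, Wnt9b, Wnt16 and Dkk1), beside 3.30% of all. Null was open and R172H not at 2 members (Wnt6 and Wnt10b; 1.27% of all), and no member was open in null and not in R245W (0.544% of all). Between the mutants, R172H was open and R245W not at 2 members (Wnt3a and Fzd10; 1.61% of all), and the reverse was seen at 3 (Wnt6, Wnt9b and Wnt10b; 2.57% of all). With 3 libraries against 3, an exact two-sided permutation test cannot give a p below 0.1, so no p is given for a single end, and the comparisons share the libraries of each line.

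The distance from the gene end to the nearest peak separated 2 kinds of call. At Dkk1, which encodes an inhibitor of Lrp5 and Lrp6, all 6 mutant libraries had a peak across the start, and the nearest null peaks lay 4908, 4908 and 4891 bp away. At Wnt2, a ligand, the mutant peaks lay 419 to 755 bp from the end and the nearest null peaks 53319 to 53587 bp away. At Wnt16, a ligand expressed by osteoblasts, the R245W peaks crossed the start and the null peaks were 6935, 6995 and 7079 bp away. R172H was not uniform at this gene: replicate 3 had a weak peak (percentile 15.4) 194 bp from the end and the other two R172H libraries had none nearer than 6911 bp.

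The other kind of call rested on where a peak ended. At Wnt3a, a classic canonical ligand, R172H had weak peaks within the limit (percentiles 7.88, 26.9 and 22.6), whereas R245W had peaks 1301 to 1379 bp and null 1395 to 1405 bp from the same end, just outside it. At Wnt9b the R245W peaks lay 672, 674 and 782 bp from the end and the R172H peaks 1102 to 1217 bp. The end in question lies beside the start of Wnt3, whose span overlaps that of Wnt9b by 1098 bp. The R245W peaks called there are those of the Wnt3 start (percentiles 23.5, 45.5 and 47.2 at both). At the annotated Wnt9b start, inside the span, the direction was the reverse, with peaks in R172H only, so the 2 measures conflict at this gene. At Wnt10b, a ligand that favours bone over fat formation, R245W had peaks 227 to 244 bp from the start and R172H 1504 bp from it in all 3 libraries. At Wnt6 the call was at the far end of the span, where R245W and null peaks lay 398 to 581 bp away and R172H peaks 2451 to 2489 bp. Its promoter told another order, with strong peaks in all 3 R172H libraries (86.4, 88 and 87.5), in R245W replicates 2 and 3 (28.4 and 83.8) and in null replicates 2 and 3 (37.9 and 15.9).

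Widening the limit to 2000 bp left 3 members open in R172H and not in null (Wnt2, Fzd10 and Dkk1) and 3 in R245W and not in null (Wnt2, Wnt16 and Dkk1). Narrowing it to 500 bp gave 4 against null in each mutant: Wnt7b, Fzd10, Dkk1 and Dkk2 in R172H, and Wnt7b, Wnt16, Dkk1 and Dkk2 in R245W. Against null, Dkk1 was called in both mutants under the 3 limits, Fzd10 in R172H and Wnt16 in R245W.

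Among the ligands, Wnt7b (gene ID 22422, chr15:85535437-85581821), which can drive osteoblast differentiation, had the most regions called in a mutant line and not in null. Its window held 19, 18 and 16 peaks in the R172H libraries, 13, 14 and 14 in R245W and 7, 7 and 7 in null. The 3 lines did not overlap, in the order R172H, R245W, null. R172H had 9 regions absent from null and null 1 absent from R172H, and R245W had 6 absent from null and lacked none of null's. The regions in R172H and not null were mostly weak, with percentiles in single libraries from 0.773 to 55.3. The strongest lay 15 bp outside the lower end (percentiles 50.6, 55.3 and 48.2 in R172H and 45, 50.3 and 55.6 in R245W), and the nearest null peaks were 10925, 11115 and 11115 bp from that end. At the upper end the picture was different, since the region there was called in all 9 libraries (percentiles 73.4 to 81.8). The null peaks began 1001, 1141 and 1135 bp from that end, just past the limit.

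**Figure D2:**
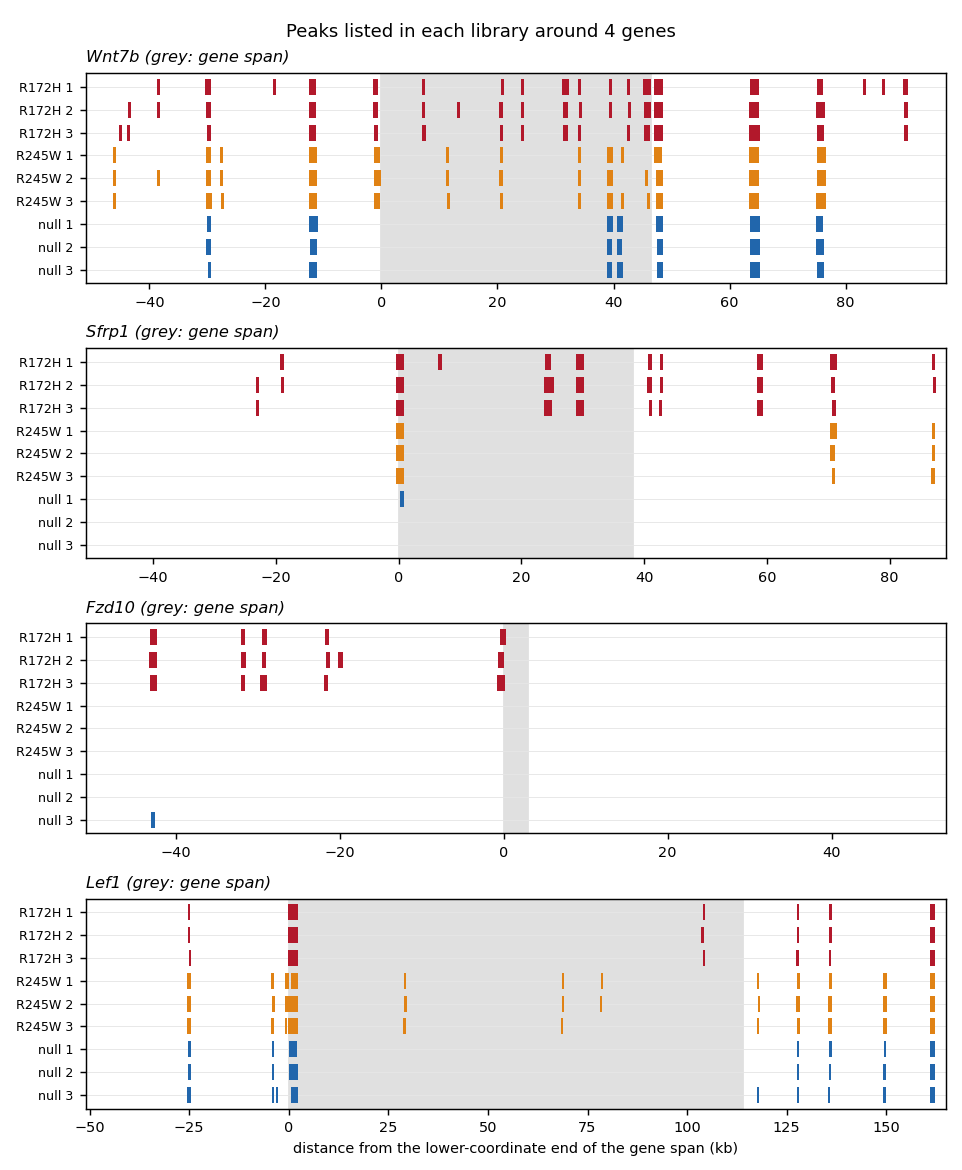
Peaks listed in each library (rows, coloured by line) across the windows of Wnt7b, Sfrp1, Fzd10 and Lef1, by distance in kb from the lower-coordinate end of the gene span, which is shaded grey. Null rows hold 7 peaks at Wnt7b and at most 1 at Sfrp1 and Fzd10, and at Lef1 the R245W rows hold the most (11 or 12).

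Wnt2 and Wnt3 showed the same order of lines at lower counts. The window of Wnt2 (gene ID 22413, chr6:17985474-18032772) held 4, 4 and 4 peaks in R172H, 2, 3 and 2 in R245W and 1, 1 and 1 in null. That of Wnt3, a canonical ligand, held 10, 9 and 12 in R172H, 6, 7 and 7 in R245W and 4, 4 and 4 in null. Neither gene had overlapping lines. The Wnt3 start was open in R172H (percentiles 12.9, 16.3 and 8.63) and in R245W (23.5, 45.5 and 47.2) and called in 1 null library at percentile 0.0721. The strongest Wnt3 region of R245W absent from null lay inside the span (chr11:103780005-103780966), with a lowest percentile of 53.2, and it was called in all 3 R172H libraries too.

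Wnt3a and Wnt9a stand 16098 bp apart on chromosome 11 and share 17 regions, so their windows are not independent. The Wnt3a window held 21, 21 and 22 peaks in R172H, 15, 13 and 14 in R245W and 14, 13 and 15 in null, so that R172H stood above the other two lines, which overlapped. R172H had 5 regions absent from R245W there, more than any other ligand except Wnt7b, which also had 5. Wnt9a had 17, 17 and 19 peaks in R172H, 11, 10 and 10 in R245W and 8, 7 and 11 in null, and Wnt9b, which shares 11 regions with Wnt3, had 13, 12 and 15, then 8, 9 and 9, then 7, 8 and 6. For Wnt9b a region downstream of the gene (chr11:103684893-103685931) went against this order, with lowest percentiles of 87.4 in R245W and 81.2 in null and no R172H call. That region lay 41431 bp from the span and nearest to Gosr2. Wnt11, a ligand of the beta-catenin-independent branch, had 14 peaks in each R172H library, 9, 10 and 9 in R245W and 11, 11 and 10 in null. Among its distal regions, one (chr7:98800463-98801783) was called in null and R172H and not in R245W, with a lowest null percentile of 60.8. Another (chr7:98804616-98805483) had calls in R245W and null but lacked R172H, with a lowest R245W percentile of 83.9.

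Wnt4 and Wnt5a departed from the general direction. The Wnt4 window had similar counts in the lines (12, 11 and 9 in R172H, 13, 14 and 12 in R245W, 13, 11 and 11 in null) but different regions. R245W had 4 regions absent from R172H and R172H 1 absent from R245W, and null had 4 absent from R172H and lacked 1 of its regions. A strong region within the span (chr4:137286386-137288185) had percentiles of 95.6, 93.5 and 93.7 in R245W and 85.2, 81.8 and 84.7 in null and no call in R172H. Nearby in the span, R172H alone was called (chr4:137282563-137283867) at 76, 80.4 and 80.4. The 3 other Wnt4 regions that null had and R172H lacked lie nearest to another gene, Cdc42. Wnt5a, the best studied non-canonical ligand, had 8, 6 and 6 peaks in R172H, 2, 4 and 3 in R245W and 7, 7 and 5 in null, so that R245W was low and the others overlapped. Of its regions, the strongest in null and not R245W (chr14:28510924-28511881) lay in the span, with a lowest percentile of 41 and no R172H call.

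Summed over the 9 libraries, the most peaks of any ligand were at Wnt5b (21, 19 and 21 in R172H, 20, 27 and 23 in R245W, 19, 18 and 18 in null) and Wnt10b (15, 16 and 18, then 16, 16 and 16, then 17, 18 and 17). At both genes R172H and R245W overlapped, and at Wnt10b all 3 lines lay between 15 and 18. Within R172H the order was another, with more peaks at Wnt3a, Wnt7b and Wnt9a than at Wnt10b. The far end of Wnt5b was open in R172H only (53.8, 62.9 and 54.5). Wnt10b stands 11651 bp from Wnt1 and shares 18 regions with it, and Wnt1 had 14, 15 and 17 peaks in R172H, 15, 16 and 15 in R245W and 15, 16 and 16 in null. Null had 4 regions at Wnt10b absent from R172H, and R172H 2 absent from null. Null had 3 regions at Wnt1 absent from R172H, and R172H 1 absent from null. The strongest null region at Wnt10b absent from R245W (chr15:98722776-98723276, lowest percentile 40.7) lies nearest to Ccdc65. The strongest such R172H region at Wnt2b (chr3:104942927-104944085) lay 720 bp beyond the far end, with a lowest percentile of 79.4 and no call in either other line. The other ligands, Wnt6, Wnt7a, Wnt8a, Wnt8b, Wnt10a and Wnt16, had line means from 4 peaks (Wnt7a in null) to 14 (Wnt6 in R172H). Of these, Wnt8b had separate mutant and null counts (8, 10 and 10 in R172H, 8, 11 and 8 in R245W, 5, 5 and 5 in null).

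**Figure D3:**
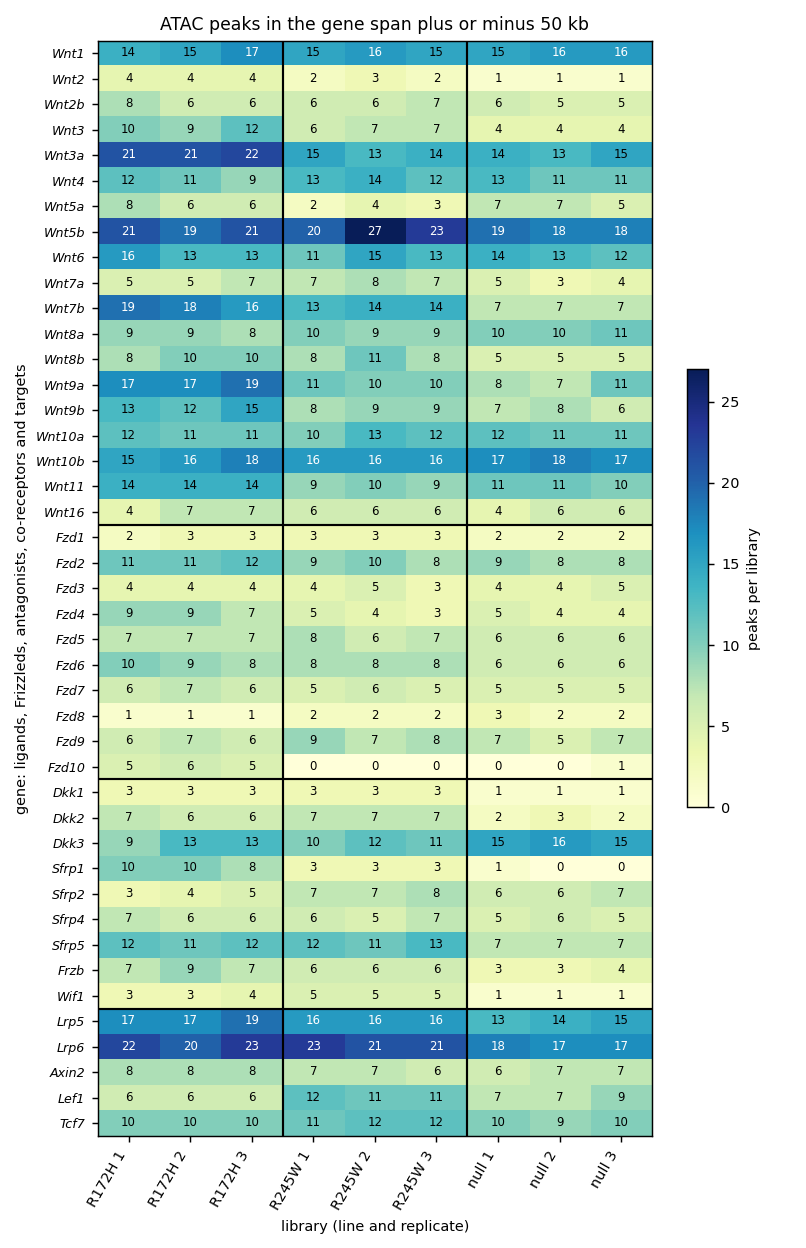
Number of ATAC peaks in the span plus or minus 50 kb of each of the 43 genes (rows, grouped by class) in each of the 9 libraries (columns). Wnt7b has 16 to 19 peaks in R172H and 7 in null, Sfrp1 8 to 10 in R172H and at most 1 in null, and Fzd10 is empty in all R245W libraries.

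The Frizzled genes were the most evenly open class at their ends, and Fzd10 was the exception. Fzd1, Fzd2, Fzd4 and Fzd5 had end peaks at percentiles of 90 or more in every library, and Fzd7 and Fzd9 at 89 or more. Fzd3 and Fzd6 had an open end in every library: Fzd3 had 69, 63.2 and 66.5 in R172H, 86.4, 88.2 and 87.3 in R245W and 36.5, 30 and 35.1 in null. Fzd6 had 86.2, 88.4 and 86, then 69.7, 71.9 and 73, then 59.1, 58.6 and 61.

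Fzd10 (gene ID 93897, chr5:128601106-128604093) encodes a Wnt receptor. Its window held 5, 6 and 5 peaks in R172H, 0, 0 and 0 in R245W and 0, 0 and 1 in null. All 6 regions of the window were thus called in R172H libraries, with 4 of them in 3 of 3 and missing from null, and 5 in 3 of 3 and missing from R245W. The strongest (chr5:128557852-128558824) had percentiles of 78.7, 78 and 80.3 in R172H, and null replicate 3 had a trace of it at 2.79. The absence extended well beyond the gene. R245W had no peak over 1350 kb (chr5:127617726-128970913), a stretch with the 5 genes Glt1d1, Tmem132d, Fzd10, Piwil1 and Rimbp2, in which R172H had 10, 9 and 8 peaks and null 1, 1 and 2. In null no peak was listed over 410 kb (chr5:128558400-128968302), where R172H had 6, 7 and 6. Copy number was not measured, and its part in these absences and in the calls of R172H alone was not tested.

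Summed over the 9 libraries, Fzd2 and Fzd6 had the most peaks of the class, although Fzd9 equalled Fzd6 in the R245W mean (8) and exceeded it in null (6.33 against 6). Fzd2 had 11, 11 and 12 in R172H, 9, 10 and 8 in R245W and 9, 8 and 8 in null, so that R172H stood above both. Fzd6, a receptor of planar polarity signalling, had 10, 9 and 8 in R172H, 8, 8 and 8 in R245W and 6, 6 and 6 in null, and only null was apart from both others. A flanking Fzd6 region (chr15:38985845-38987113) was called in R172H alone with a lowest percentile of 86.9. On the other side of the gene, one region (chr15:39041873-39042609) had calls in null and R245W but none in R172H, with a lowest null percentile of 81.9, and its neighbour (chr15:39043159-39043878) had a lowest R245W percentile of 74.9 and was called in null too.

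At Fzd4, R172H had 9, 9 and 7 peaks, R245W 5, 4 and 3 and null 5, 4 and 4. Fzd8 had few, with 1, 1 and 1 in R172H, 2, 2 and 2 in R245W and 3, 2 and 2 in null, and the region R172H lacked (chr18:9190655-9191842) had a lowest null percentile of 81.6. A region 14550 bp from Fzd5 and nearest to Ccnyl1 (chr1:64715170-64716008) was called in R172H and not null, with a lowest percentile of 85.6 and 2 of 3 R245W libraries. One downstream of Fzd7 and nearest to Gm973 (chr1:59515974-59517073) was called in both mutants and not null, with a lowest R245W percentile of 56.3. Fzd1, Fzd3, Fzd5, Fzd7 and Fzd9 had line means between 2 and 8 peaks.

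Among the secreted antagonists, Sfrp1 (gene ID 20377, chr8:23411383-23449632), which binds Wnt ligands and restrains bone formation, had the most uneven window. It held 10, 10 and 8 peaks in R172H, 3, 3 and 3 in R245W and 1, 0 and 0 in null. R172H therefore stood above R245W, and R245W above null, without overlap. The gene end had strong peaks in both mutants, at percentiles of 92.1, 92.1 and 93 in R172H and 85.5, 88.4 and 85.9 in R245W, and the only null peak of the window was at that end in replicate 1, at 4.39. Null thus fell short of the 0-of-3 rule through a single weak call. The strongest region of R172H absent from both other lines lay 20118 bp beyond the span (chr8:23469750-23470822), at 89.9, 88.2 and 87.3. Inside the span 2 more were called in R172H only (chr8:23435024-23436648 at 69, 63.8 and 61.3, and chr8:23440284-23441599 at 60.7, 55.5 and 56.5).

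As at Fzd10, the empty stretch around Sfrp1 was longer than the gene. From chr8:23411955 to 23596373, 184 kb, no null library had a peak, whereas R172H had 12, 11 and 11 and R245W 5, 5 and 5. Null replicates 2 and 3 had none over 339 kb, where R172H had 17 to 21 and R245W 9 each. Chromosome 8 as a whole had 1.35 times as many peaks in R172H and 1.26 times as many in R245W as in null, beside 1.12 and 1.18 for the whole genome. Per 1000 peaks on chromosome 8, the Sfrp1 window held a mean of 2.15 in R172H, 0.743 in R245W and 0.105 in null, in the same order. Here too copy number was not measured, and its part in the null counts was not tested.

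The Dkk genes differed from each other. Dkk1 (gene ID 13380, chr19:30545876-30549496) had 3 peaks in each mutant library and 1 in each null library. Dkk2, a modulator of the Lrp co-receptors needed for normal osteoblast maturation, had 7, 6 and 6 in R172H, 7, 7 and 7 in R245W and 2, 3 and 2 in null, so that both mutants were above null and overlapped each other. The mutant lines differed in which regions were called there, with 2 Dkk2 regions in R172H and not R245W and 4 in R245W and not R172H. Its strongest R245W region absent from null, at the gene start (chr3:132085186-132087480), was shared by R172H. Dkk3, a divergent member of the family, went the other way, with 9, 13 and 13 in R172H, 10, 12 and 11 in R245W and 15, 16 and 15 in null. Null was above both mutants, which overlapped. Null had 4 Dkk3 regions absent from R172H and 4 absent from R245W, at null percentiles from 15.4 to 69.1. One of them (chr7:112135150-112135849), inside the span, had null percentiles of 50.3, 50.9 and 53.6 and calls in 2 R172H libraries.

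Sfrp5 and Dkk3 had the most peaks of the class. Sfrp5 had 12, 11 and 12 in R172H, 12, 11 and 13 in R245W and 7, 7 and 7 in null, with 5 regions of R172H and 4 of R245W absent from null and none the other way. Of the 17 regions in the Sfrp5 window, 6 lay nearest to Sfrp5. Frzb, also named Sfrp3, had 7, 9 and 7 in R172H, 6, 6 and 6 in R245W and 3, 3 and 4 in null. Wif1, which binds Wnt ligands through its WIF domain, had 3, 3 and 4 in R172H, 5, 5 and 5 in R245W and 1, 1 and 1 in null. In both genes the 3 lines did not overlap, and R245W led at Wif1. The starts of both were open in every library: Frzb had percentiles of 79.8 to 81.7 in R172H, 71.4 to 74.6 in R245W and 30 to 36.9 in null, and Wif1 85.2 to 86.6, 88.2 to 90.5 and 76.8 to 79. Sfrp2 was low in R172H, with 3, 4 and 5 peaks beside 7, 7 and 8 in R245W and 6, 6 and 7 in null. Sfrp4 had 7, 6 and 6, then 6, 5 and 7, then 5, 6 and 5, and the lines overlapped.

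**Figure D4:**
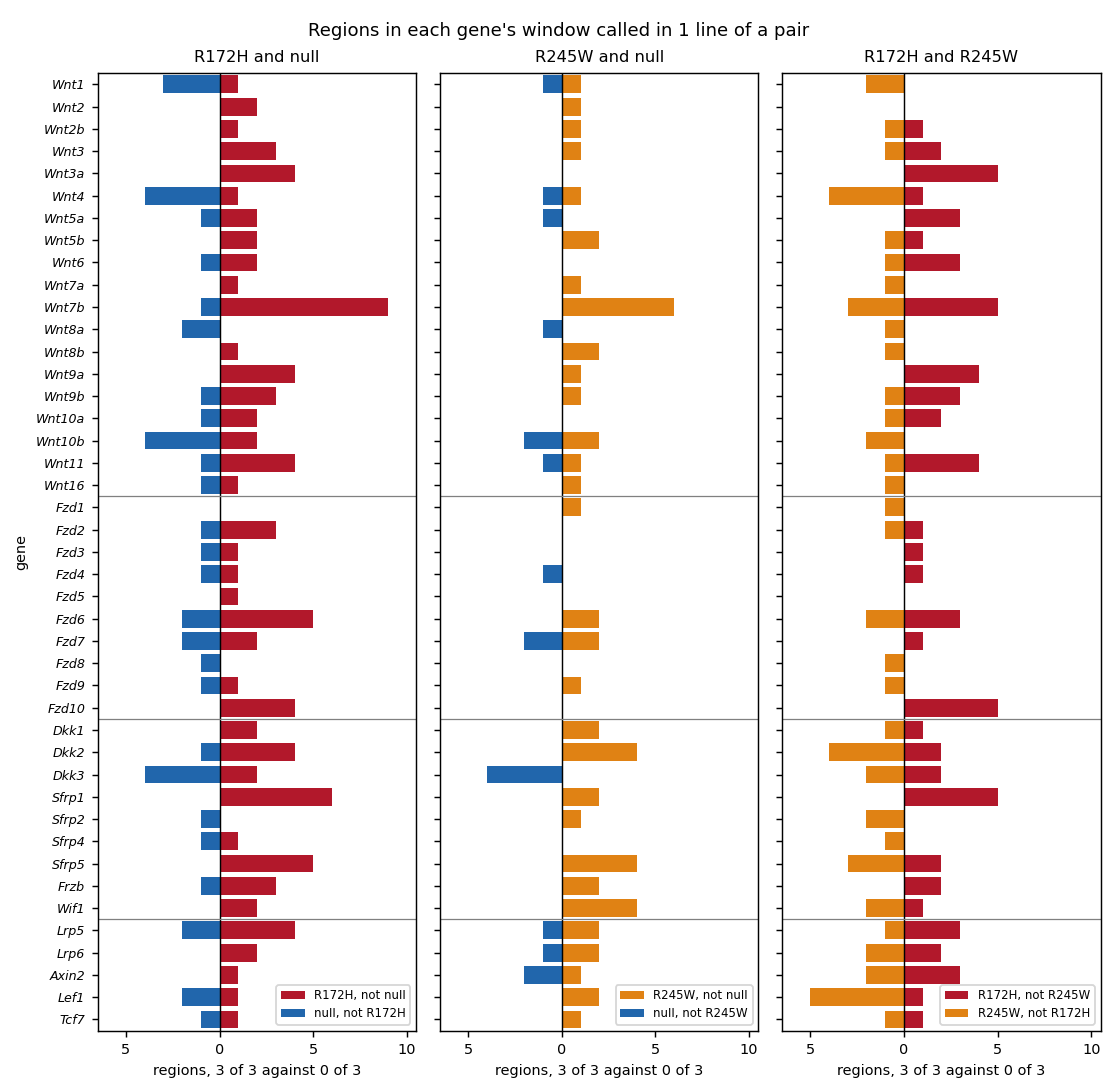
Regions in each gene's window called in 3 of 3 libraries of one line and 0 of 3 of the other, for each pair of lines (panels), with the first line's regions to the right of 0 and the second's to the left. Wnt7b reaches 9 and Sfrp1 6 to the right in the comparison of R172H with null, and Wnt4, Wnt10b and Dkk3 reach 4 to the left.

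Among the co-receptors and targets, Lef1 had a pattern of its own. Lef1 (gene ID 16842, chr3:131110297-131224357), a DNA-binding partner of beta-catenin, had 6, 6 and 6 peaks in R172H, 12, 11 and 11 in R245W and 7, 7 and 9 in null. R245W had 5 regions absent from R172H and R172H 1 absent from R245W. The strongest of the 5 lay downstream, nearest to Hadh (chr3:131259330-131260356), with percentiles of 76.8, 73.7 and 69.2 in R245W and 31.5, 35.6 and 27.7 in null. The Lef1 start had a peak within 1000 bp in every library, at percentiles of 46.3 to 57.5 in R172H, 56.8 to 65.5 in R245W and 31.6 to 40.6 in null. The promoter window of that start had a peak in 3 R172H, 3 R245W and 1 null library. Chromosome 3 had fewer peaks in R172H than in null (a ratio of 0.968) and 1.29 times as many in R245W. Per 1000 peaks on that chromosome Lef1 kept its order, with means of 1.72 in R172H, 2.44 in R245W and 2.12 in null, and missed the threshold of the test across the lines described below (adjusted exact permutation p 0.0644).

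Lrp6 and Lrp5, the co-receptors, had the most peaks of their class summed over the 9 libraries. Lrp6 had 22, 20 and 23 in R172H, 23, 21 and 21 in R245W and 18, 17 and 17 in null. In these full lists both mutants were above null and overlapped each other. The Lrp6 excess over null was lost under other scalings. At equal list lengths all lines overlapped, and the null mean (17.3) lay between those of R245W (15.3) and R172H (17.7). Per 1000 peaks on chromosome 6 null had the highest mean (5.05), followed by R172H (4.8) and R245W (4.51). Lrp5 had 17, 17 and 19 in R172H, 16, 16 and 16 in R245W and 13, 14 and 15 in null, without overlap. Its end peak ranked 81.4 to 83.4 in R172H, 71.8 to 74.9 in R245W and 50.5 to 56.9 in null. A flanking region shared by both mutants and absent from null (chr19:3718382-3719823), nearest to 1810055G02Rik, had a lowest R245W percentile of 68.7. The order at Lrp5 did not hold under other scalings: per 1000 peaks on chromosome 19, which had 1.40 and 1.32 times as many peaks in R172H and R245W as in null, the mean was 6.83 in R172H, 6.52 in R245W and 7.55 in null. Axin2, the negative feedback target, had 8, 8 and 8 in R172H, 7, 7 and 6 in R245W and 6, 7 and 7 in null, and Tcf7 10, 10 and 10, then 11, 12 and 12, then 10, 9 and 10.

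The window counts of all genes were then tested together for a difference between the 3 lines. An exact one-sided permutation test compared the spread of the line means with that under all 280 partitions of the 9 libraries into 3 groups, with Benjamini-Hochberg adjustment over 19290 genes with a peak. Of the 43 members 8 passed at an adjusted p under 0.05, beside 9.63% of all genes: Wnt2, Wnt3, Wnt7b, Sfrp1, Frzb, Wif1, Lrp5 and Lef1. Each reached the smallest p the design allows (0.00357, adjusted exact permutation p 0.0371), and all are genes whose 3 lines did not overlap. In 6 of the 8 the order was R172H, R245W, null. Wif1 ran R245W, R172H, null, and Lef1 R245W, null, R172H. Of the 43, 27 had an unadjusted exact permutation p under 0.05, as did 10159 of the 19290 genes. Equal list lengths and scaling by the peaks on each gene's chromosome kept the order of the lines at 7 of the 8, and at Lrp5 the null mean then stood above R245W under both. At equal list lengths the calls of Wnt3 (adjusted exact permutation p 0.0697), Frzb (0.0597), Lrp5 (0.119) and Lef1 (0.119) were lost, with R172H and R245W overlapping at Wnt3, R245W and null at Frzb and Lef1, and all 3 lines at Lrp5.

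Of the 8, Sfrp1 alone kept its call whichever library was left out, although it missed the threshold with a window of 25000 bp (adjusted exact permutation p 0.0802). Without any one of the R172H libraries Wnt2 missed the threshold (adjusted p 0.0587 to 0.0607 in the exact permutation test). So did Lef1 (0.0628 to 0.0634), and also without R245W replicate 1 (0.0602). Wnt3 missed it without R245W replicate 1 (0.0602). Without any one R245W library, Wnt7b and Wif1 (0.0592 to 0.0621 each), Frzb and Lrp5 (0.0616 to 0.0642 each) missed it, and Lrp5 also without R172H replicate 3 (0.0628). The closest misses among the other members were Wnt9b (13.3 ± 1.53 in R172H, 8.67 ± 0.577 in R245W and 7 ± 1 in null; SD, n = 3) and Wnt11 (14 ± 0, 9.33 ± 0.577 and 10.7 ± 0.577), each with an adjusted exact permutation p of 0.0554.

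Counted over regions, the mutant lines had more of their own near Wnt genes than null had, as they also had over all regions. At equal list lengths the counts near Wnt genes for R245W and null came close (32 in R245W and not null, 27 in null and not R245W). The shares of all regions were not computed at equal list lengths, so whether this is particular to Wnt genes is not known. The shares that follow are for the full lists. Of the 551 regions in member windows, 181 were called in all 9 libraries. In R172H and not null 89 were called, 16.2% of them, where the same held for 14.5% of all regions. The reverse, in null and not R172H, was seen for 38, or 6.90% beside 10.3% of all. In R245W and not null there were 53, or 9.62% beside 10.0% of all, and in null and not R245W 17, or 3.09% beside 4.03%. Between the mutants, 64 were in R172H and not R245W, or 11.6% beside 11.5% of all, and 51 in R245W and not R172H, or 9.26% beside 13.8%. The regions of R245W absent from null and those of R172H absent from R245W were thus about as frequent near Wnt genes as in the genome.

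By class, the ligand windows together held 181 ± 3.46 distinct peaks in R172H, 159 ± 10.3 in R245W and 139 ± 2.31 in null (mean ± SD, n = 3 libraries, each peak counted once). The Frizzled windows held 61.3 ± 2.52, 50.3 ± 3.06 and 45 ± 2.65. The antagonist windows held 63.3 ± 2.08 and 60.3 ± 2.31 in the mutants, whose libraries overlapped, and 42 ± 1 in null. The co-receptor and target windows held 63.3 ± 2.52, 67.3 ± 1.53 and 55.3 ± 2.31. R172H exceeded null without overlap in every class. With all lists cut to equal length, the antagonists kept the gap between each mutant and null (57 ± 1 in R172H, 51.3 ± 1.53 in R245W and 42 ± 1 in null). In the ligands the R245W mean then stood below that of null (133 ± 5.03 against 138 ± 3.61, and 153 ± 2.08 in R172H). In co-receptors and targets it did as well (52.7 ± 3.21 against 55.3 ± 2.31), and R172H was level with null (55.7 ± 4.51).

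**Figure D5:**
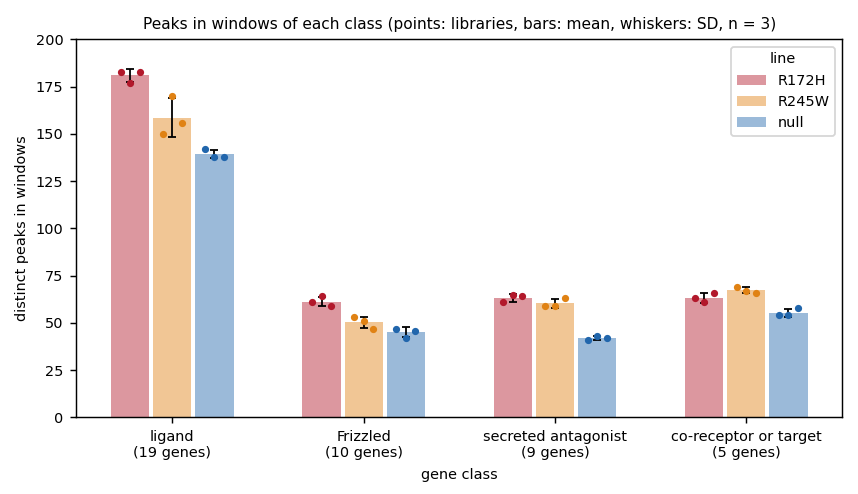
Distinct peaks in the windows of each gene class, per library (points), with the mean (bar) and SD (whisker) over 3 libraries of R172H, R245W and null. The antagonist bars stand at 63.3 and 60.3 for the mutant lines and 42 for null.

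Over single members, 32 of 43 had a higher mean in R172H than in null and 9 a lower one, 74.4% beside 54% of all 19290 genes, and the median difference was 1.67 peaks beside 0.333. R245W exceeded null at 30 members and was lower at 10 (69.8% beside 65.2% of all, median difference 1 in both). R172H exceeded R245W at 23 and was lower at 14 (53.5% beside 35.8% of all). At equal list lengths the shares above null became 65.1% for R172H (39.5% of all genes) and 48.8% for R245W (40.4% of all), and 62.8% were higher in R172H than in R245W (42% of all). Relative to all peaks, the 43 windows held 0.503% ± 0.00854 of the list in R172H, 0.436% ± 0.00515 in R245W and 0.429% ± 0.00809 in null (SD, n = 3).

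Gene ends of the rest of the pathway were mostly open. Of 56 further Wnt genes, 49 had a peak at an end in every library, beside 55.0% of all genes, and 2 in none: Dkkl1, a Dkk-related gene, and Axin1, a scaffold of the destruction complex. The Axin1 window held 11 to 18 peaks per library. Axin1 had no promoter entry, so whether its promoter was open is not known. The 3 secretion genes (Porcn, Wls and Notum), all 8 nuclear factors and all 6 feedback or common target genes were open throughout. Only Rspo1, a secreted enhancer of Wnt signalling, had an end called in 3 of 3 against 0 of 3 libraries: it was open in R172H (lowest percentile 73), in no R245W library and in 2 of 3 null libraries. In the exact permutation test across the lines 10 of the 56 passed (adjusted p 0.0371), beside 9.63% of all genes: Rspo2, Lgr4, Ror1, Ptk7, Prickle2, Kremen1, Tcf7l2, Bcl9, Pygo1 and Tle1. The order was R172H, R245W, null in 5 of the 10, R245W, null, R172H in 3, R245W, R172H, null in Ptk7 and R172H, null, R245W in Tle1. The same order held at equal list lengths and per 1000 peaks on the chromosome in 6 of the 10, the exceptions being Prickle2, Tcf7l2, Bcl9 and Pygo1. The widest gap was at Ror1, a receptor tyrosine kinase-like receptor for Wnt5a, with 18, 19 and 21 peaks in R172H, 15, 17 and 14 in R245W and 2, 4 and 3 in null, although its start was open in every library. Lgr4, a receptor for R-spondins, had 12, 13 and 11, then 8, 8 and 8, then 6, 6 and 6. Tle1, a co-repressor that binds Tcf factors, had 6, 7 and 6 in R172H, 1, 1 and 1 in R245W and 2, 3 and 2 in null. None of the 11 genes of the cytoplasmic relay and destruction complex was among them.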

How the data were processed

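Open chromatin was measured by ATAC-seq in 9 libraries of 3 mouse osteosarcoma lines, 3 per line, grouped by the genotype in the labels. The authors used MACS2 2.1.0, Bowtie 1.1.2, Trimmomatic 0.33, bcl2fastq 2.17 and deepTools with build GRCm38, per the submitters' processing notes. Tool settings, filters on reads and whether reads were shifted for the Tn5 cut: not given in the sources used here. Read depth is unknown. The authors deposited 1 peak list per library, not pooled, and give each peak a score, a fold ratio over background, a −log10 p-value and a −log10 q-value. The deposited fold, score and −log10 p were not used. The lowest −log10 q in the lists is 1.3, a q of 0.05. The −log10 q was used for filters and for percentiles inside a list, which are not a measure of strength between lists of different length.

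Peaks overlapping by 1 bp or more were merged into regions. Peaks in gene spans (RefSeq, GRCm38.p6) plus or minus 50000 bp and within 1000 bp of gene ends were counted, with Python 3.11.15, numpy 2.4.6, pandas 2.3.3 and scipy 1.17.1. The gene table holds no exons, so regions are placed only inside a span or in its flank. Counts in windows were tested by an exact permutation test over 280 partitions, with Benjamini-Hochberg adjustment over 19290 genes and a threshold of 0.05. Overlap counts were compared with a direct count on the list of null replicate 1. The region rule was run on simulated calls in which specific regions had been set, which checks the code only. The permutation test was run on simulated counts. The members and lists were chosen with earlier results of these data known. Values per library are given for members with an end called in 3 of 3 against 0 of 3 libraries, the 3 per pair and direction with the most net regions (at least 2), and the 2 per class with the most peaks. Positions are given for the strongest specific region of up to 4 members per pair and direction. Members passing the test across the lines, and other members given with their counts, were added to this rule after their values were seen, as were Ror1, Lgr4 and Tle1 from a list of 56 further Wnt genes. Other settings tried were lists of equal length, a −log10 q of 5 or more, windows of 25000 and 100000 bp, end limits of 500 and 2000 bp, calls in 2 of 3 libraries, nearest genes only, scaling by chromosome, a replicate block and leaving out each library. The promoter window was added after seeing the data.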

Additional observations from a re-analysis of the deposited data

How the results depend on the processing

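Members with an open end numbered 5 to 7 in R172H and not null, 2 in null and not R172H, 5 to 7 in R245W and not null, 0 in null and not R245W, 2 in R172H and not R245W and 3 to 4 in R245W and not R172H when each library was left out in turn. Under a −log10 q of 5 or more, R172H and not R245W gave 1. Equal list lengths gave 2 in null and not R245W (Wnt11 and Sfrp5). A limit of 500 bp gave 1 in null and not R172H, 1 in R172H and not R245W and 1 in R245W and not R172H, and a limit of 2000 bp gave 3 in each mutant and not null and 1 in each of null and not R172H, R172H and not R245W and R245W and not R172H. The promoter window, chosen after seeing the data, gave 1 in null and not R172H and 1 in null and not R245W. Apart from the promoter window, the shares of all genes were not computed under these settings, so the shifts are described for the members only.

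Region counts ranged, leaving out a library, from 89 to 107 in R172H and not null, 38 to 43 in null and not R172H, 53 to 61 in R245W and not null, 17 to 22 in null and not R245W, 64 to 82 in R172H and not R245W and 51 to 58 in R245W and not R172H. Equal list lengths gave 32 in R245W and not null and 27 in null and not R245W. Windows of 25000 bp gave 25 in null and not R172H, 34 in R245W and not null and 33 in R245W and not R172H, and counting only regions nearest to a member gave 24, 34 and 33. Windows of 100000 bp gave 142 in R172H and not null, 72 in null and not R172H, 30 in null and not R245W, 102 in R172H and not R245W and 91 in R245W and not R172H. Calls in 2 or 3 of 3 libraries gave 27 in null and not R245W and 103 in R172H and not R245W. The shares of all regions were not computed under these settings.

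In the test across the lines, 2 to 9 members passed when a library was left out, beside 8.75% to 9.63% of all genes. The 2 were Wnt2 and Sfrp1 without R245W replicate 1. A −log10 q of 5 or more gave 5, of which 3 were among the 8 (Wnt2, Sfrp1 and Wif1), where 10.4% of all genes passed. Equal list lengths gave 6, of which 4 were among the 8 (Wnt2, Wnt7b, Sfrp1 and Wif1), where 9.99% of all genes passed. Windows of 25000 bp gave 5 with 2 of the 8 (Wnt7b and Wif1), where 7.3% of all genes passed. Windows of 100000 bp gave 19 with 6 of the 8 (30.5% of all genes), and scaling by the peaks on the chromosome 15 with 6 of the 8 (38.9% of all). Under that scaling null had the highest mean at Lrp5 in place of the lowest (adjusted exact permutation p 0.0787). With the replicate number as a replicate block, 0 members and 0 of all genes passed the exact permutation test, whose smallest p is then 0.0278. With the block, 11 members had an unadjusted p under 0.05, and the lowest adjusted p was 0.182. Same-numbered libraries had correlations of deviations from −0.0082 to 0.028, and differently numbered libraries of different lines from −0.033 to 0.033. Such correlations of peak counts cannot tell whether same-numbered libraries shared a preparation, which the labels do not state. The 8 calls need at least 1378 genes at the smallest p, which 1858 reached. Causes of these shifts were not tested, except that a wider window takes in more regions. Peak calls depend on depth, which is unknown, so a missing peak is not shown to be closed chromatin.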
